A study of Mus musculus with 2 samples.

Results

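The genes described here are 7 enzymes of hyaluronan breakdown: the hyaluronidases Hyal1, Hyal2 and Hyal3, the hyaluronan depolymerising proteins Cemip and Cemip2, and the lysosomal exoglycosidases Gusb and Hexa. They were found by symbol among the 33696 genes of the count matrices, where each symbol had 1 entry; the rule names the genes and uses no measured value, though it was written with earlier results of these data known. The matrices come from single-cell RNA sequencing of ulcerated skin of mice, a lesion that the submitters abbreviate UD and that was driven by tape stripping 40 to 50 times a day for 15 days. One library came from wild type skin and the other from skin labelled as having whole-body overexpression of Has2, a hyaluronan synthase; both received the same stripping, and neither skin was given a further treatment after collection. The labels name neither the promoter of the transgene, the number of animals in a library, their age or sex, nor the step that preceded the stripping, and they list total RNA for the wild type and polyA RNA for the other library. With 1 library a genotype, genotype, animal and library preparation cannot be told apart, so no test between genotypes was possible, and every interval below is a 95% interval for counting error only.

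Hyaluronan is a long sugar polymer of the skin matrix, built at the plasma membrane and broken down in steps. In the textbook scheme, Hyal2 at the cell surface and the Cemip proteins cut long chains into fragments, Hyal1 shortens these further in the lysosome, and beta-glucuronidase (Gusb) and beta-hexosaminidase (Hexa) remove single sugars from the chain ends. Fragment size matters in skin because long hyaluronan hydrates the matrix, while short fragments are known for their link with inflammation and wound repair.

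The wild type library held 16999 cell barcodes with 143875454 unique molecular identifiers (UMIs, each standing for 1 captured transcript), and the library labelled Has2-transgenic held 14622 barcodes with 134917708 UMIs. After filters 15681 and 13560 cells remained, at a median of 4178 and 4131 UMIs, and 79 barcode sequences occurred in both libraries. A gate on marker genes gave 92.8% of these cells a class. Fibroblasts (2203 in the wild type, 2265 in the other library), macrophages or monocytes (4912 and 4231), neutrophils (6473 and 5405), endothelial cells (229 and 215), T cells (235 and 142) and Schwann cells (68 and 56) reached 50 cells in both. Levels are given as CPM, the UMIs of a gene summed over the cells of a class per 1000000 UMIs of that class. In the library labelled Has2-transgenic, Has2 itself was lower in fibroblasts (188 CPM in the wild type against 146). It was higher in macrophages (0.296 against 1.76 CPM) and neutrophils (1.05 against 3.69 CPM), where its level was low in both libraries. What these counts say of the transgene was not tested.

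Over all kept cells the members gave between 295 UMIs (Hyal3) and 31104 UMIs (Hexa) in both libraries together. Levels are compared within a gene across cells and not between genes. The 4 remaining hyaluronidase family genes, Spam1, Hyal4, Hyal5 and Hyal6, had at most 4 UMIs each in either library. For all members but Hexa the order of fibroblasts, macrophages or monocytes, neutrophils and endothelial cells by level was the same in both libraries. Part of this order rests on few counts. Hyal3 had 1 UMI in the endothelial cells of each library. Outside fibroblasts, Cemip had from 4 to 14 UMIs in each of these classes.

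Hyal2, the cell-surface hyaluronidase, was highest in endothelial cells, at 52.1 CPM (45.6 to 59.4) in the wild type and 55.9 CPM (48.4 to 64.3) in the library labelled Has2-transgenic. Macrophages or monocytes followed at 14.9 and 15.4 CPM, fibroblasts at 4.71 and 4.36 CPM and neutrophils at 2.63 and 3.86 CPM. The intervals of these 4 classes did not overlap in the wild type, while fibroblasts and neutrophils overlapped in the library labelled Has2-transgenic. Keratinocytes, gated in number in that library alone (172 cells), stood between endothelial cells and macrophages at 21.9 CPM (17.5 to 26.9).

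Hyal1, the lysosomal hyaluronidase, had 82.9% and 76.1% of its UMIs in macrophages or monocytes, where its level was 23.8 CPM (22.4 to 25.3) in the wild type and 27.1 CPM in the library labelled Has2-transgenic. Keratinocytes of the latter reached 21.9 CPM and Schwann cells 18.84 and 20.02 CPM, the Schwann values resting on 7 and 9 UMIs and not separable from macrophages. Endothelial cells (4.345 and 3.995 CPM) and neutrophils (3.58 and 3.61 CPM) overlapped, and fibroblasts were lowest of the 4 larger classes at 0.829 and 1.06 CPM. Hyal3, a relative of Hyal1 with little known enzymatic role, followed the same distribution at a lower count: 85.0% and 77.0% of its 173 and 122 UMIs were in macrophages or monocytes, at 3.35 and 2.67 CPM. Hyal1, Hyal3 and Naa80, an acetyltransferase gene, overlap on the same strand of chromosome 9 in the RefSeq annotation, and Naa80 was also highest in macrophages among the larger classes (37.7 and 32.9 CPM). How the authors' counting assigned reads shared by these 3 genes is not given in the sources used here, so the split between Hyal1 and Hyal3 is uncertain.

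Hyal1 and Hyal2 lie close together on chromosome 9, and their start regions are printed here because neighbouring genes showed such different cell distributions. The sequences are RefSeq promoters of build GRCm38.p6, from 250 bases before to 50 bases after the start site, 5′ to 3′ on the gene's strand. Capitals mark matches to a TATA box (TATAAA, forward strand), a GC box (GGGCGG, both strands), a CCAAT box (CCAAT, both strands), an AP-1 element (TGANTCA, both strands) or the E-box core of the CLEAR element of lysosomal genes (CACGTG, both strands). Hyal2 (chr9:107568913-107569212, plus strand) held 1 GC box, and Hyal1 (chr9:107576700-107576999, plus strand) held 2 GC boxes that overlap by 1 base and 1 CCAAT box.
Hyal2: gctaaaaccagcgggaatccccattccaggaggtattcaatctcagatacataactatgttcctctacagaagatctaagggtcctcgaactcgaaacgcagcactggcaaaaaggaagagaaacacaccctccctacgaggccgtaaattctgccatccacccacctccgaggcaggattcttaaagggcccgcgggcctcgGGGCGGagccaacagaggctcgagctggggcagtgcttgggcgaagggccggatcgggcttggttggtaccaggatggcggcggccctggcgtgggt
Hyal1: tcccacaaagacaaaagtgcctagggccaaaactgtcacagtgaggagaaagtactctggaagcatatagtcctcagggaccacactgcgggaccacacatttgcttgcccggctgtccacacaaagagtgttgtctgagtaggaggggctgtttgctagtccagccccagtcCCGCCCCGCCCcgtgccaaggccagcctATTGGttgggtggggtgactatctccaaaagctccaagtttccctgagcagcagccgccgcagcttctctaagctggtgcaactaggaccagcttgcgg
Of 32851 promoters of this length, 35.7% held a GC box, 37.4% a CCAAT box, 8.32% a TATA box, 7.81% an AP-1 element and 7.15% the CLEAR core. A promoter was matched for 6 of the 7 members, and these letters of the CLEAR core and the AP-1 element were in none of the 6 windows. A match or its absence describes letters only and says nothing of a factor. No match to one motif overlapped a match to another.

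Cemip, a secreted protein that binds hyaluronan and is needed for its depolymerisation by skin fibroblasts, was a fibroblast gene in both libraries. Fibroblasts held 91.3% of its UMIs in the wild type and 96.8% in the library labelled Has2-transgenic, at 58.5 CPM (56.3 to 60.7) and 53.1 CPM (51.2 to 55.0). The level was 0.319 and 0.341 CPM in macrophages or monocytes, 0.430 and 0.420 CPM in neutrophils, and 0.915 and 1.43 CPM in endothelial cells, whose intervals overlapped. The Schwann cells of the wild type had 10.8 CPM from 4 UMIs in 1 cell. T cells had no Cemip UMI, which allows up to 3.13 and 6.01 CPM (3 counts). A UMI of Cemip was seen in 8.81% of wild type fibroblasts (median 16681 UMIs) and 17.5% of those labelled Has2-transgenic (median 24443 UMIs), against 0.244% and 0.260% of macrophages (median 8534 and 7281 UMIs). With every cell thinned to 1000 UMIs, leaving out 277 and 103 shallower fibroblasts, these shares were 2.49% (1.84 to 3.29) and 2.96% (2.29 to 3.76), and 0.0622% and 0.0481% in macrophages. Whether the macrophage shares are background was not tested. The fibroblast share and the fibroblast CPM pointed in opposite directions between libraries, and no order is read from them.

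Cemip transcripts were concentrated in very few cells. In the wild type, 10 of 2203 fibroblasts held 50% of the class's 2679 Cemip UMIs, and the highest single cell held 222. In the library labelled Has2-transgenic, 33 of 2265 fibroblasts held 50% of 3019 UMIs, with 147 in the highest cell. Fibroblasts with 10 or more Cemip UMIs numbered 43 and 78 and held 87.6% and 73.1% of all fibroblast Cemip UMIs; their median depth was 35350 and 36316 UMIs. The remaining fibroblasts had 7.54 and 15.1 CPM. Thinned to 1000 UMIs, a UMI of any of the 7 genes was seen in 20.1% and 21.9% of fibroblasts, against 35.1% and 37.5% of macrophages or monocytes and 7.14% and 9.76% of neutrophils.

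**Figure D1:**
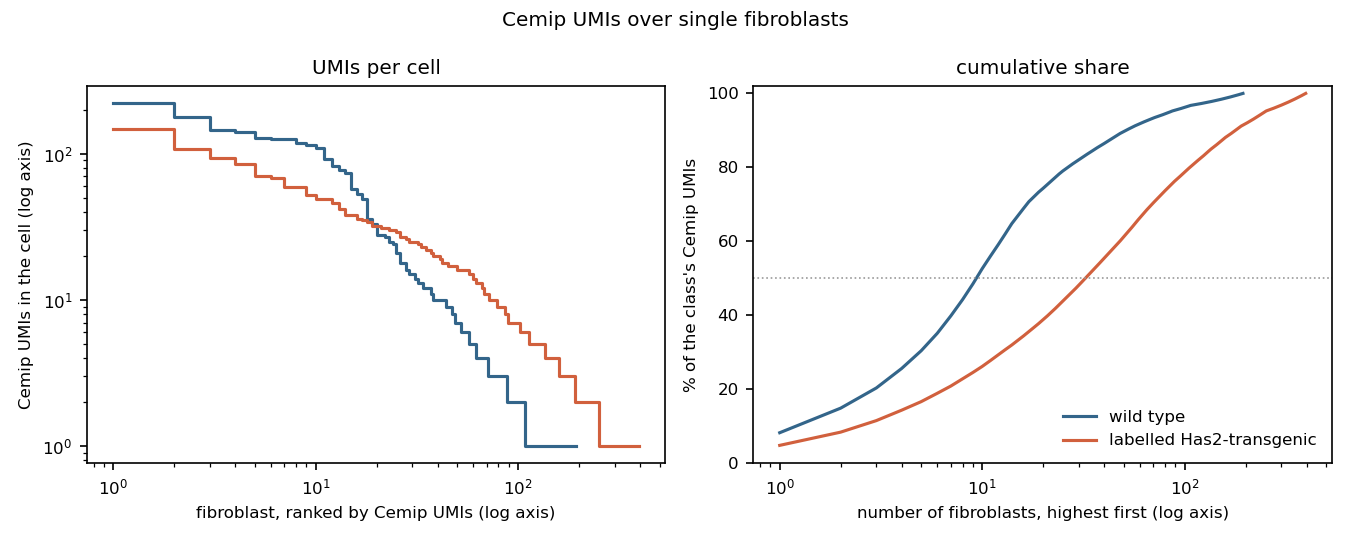
Left, Cemip UMIs in each fibroblast with at least 1, ranked from highest (both axes logarithmic); right, cumulative percent of the class's Cemip UMIs against the number of fibroblasts (horizontal axis logarithmic), 1 line for each library. The wild type line passes 50% at 10 cells and the line of the library labelled Has2-transgenic at 33 cells.

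Most Cemip UMIs fell into the cluster led by Postn, Tnn and Lrrc15, genes of wound fibroblasts, which was numbered 22 in a clustering that left the 7 members out. Of the cells with 10 or more Cemip UMIs, cluster 22 held 14 of 43 in the wild type and 58 of 78 in the other library, and cluster 1 held 23 and 3. In the wild type, 28 gated fibroblasts of cluster 22 held 1516 Cemip UMIs, 56.6% of the class, at 2604 CPM (2474 to 2738), but 14 of these cells held 1506 of the UMIs, so the level does not describe the cluster as a whole. In the library labelled Has2-transgenic, 794 such cells held 2166 UMIs, 71.7% of the class, at 95.4 CPM (91.4 to 99.5). Cells high for myofibroblast-like markers (Acta2, Tagln, Postn, Lrrc15 and Cthrc1; the highest 25% of both libraries' fibroblasts) had 552 CPM against 36.5 CPM in the rest of the wild type, and 79.7 against 24.6 CPM in the other library. This state held 81 wild type cells and 1036 cells labelled Has2-transgenic. Both wild type Cemip levels rest on few cells, as 43 fibroblasts held 2346 of the class's 2679 Cemip UMIs. They do not describe the state or the rest as a whole. The cut mattered too. With the highest 50% taken as myofibroblast-like, the Cemip ratio between libraries moved from 0.144 to 0.663 in the state. In the rest it moved from 0.676 to 0.335. The markers of the state did not move as 1 group with Cemip in the wild type: cells with 10 or more Cemip UMIs had more Postn than the other fibroblasts (693 against 117 CPM) but less of the contractile genes Acta2 (21.3 against 27.2 CPM) and Tagln (2.43 against 16.0 CPM, the first from 4 UMIs). Lrrc15 (43.8 against 10.9 CPM) and Cthrc1 (181 against 114 CPM) were also higher in these wild type cells. In the library labelled Has2-transgenic Postn (1700 against 1267 CPM), Acta2 (210 against 127 CPM) and Tagln (220 against 109 CPM) were higher in such cells. Lrrc15 was higher there too (369 against 173 CPM), but Cthrc1 was not (435 against 443 CPM). Fibroblasts high for inflammatory markers (Il6, Lif, Csf3, Cxcl5 and Il11) had less Cemip than the rest in the wild type, at 27.7 against 89.8 CPM, whereas in the library labelled Has2-transgenic the levels were 54.4 and 52.8 CPM. These wild type levels also rest on few cells, as 43 fibroblasts held 87.6% of the class's Cemip UMIs. They do not describe the inflammatory cells or the rest as a whole. The inflammatory marker Il11 was nevertheless higher in wild type cells with 10 or more Cemip UMIs (1131 against 427 CPM). Il6 (2053 against 2486 CPM) and Cxcl5 (1449 against 3003 CPM) were lower. Lif (406 against 371 CPM) and Csf3 (734 against 717 CPM) differed little. In the other library Lif (145 against 79.1 CPM), Csf3 (463 against 280 CPM) and Il11 (224 against 198 CPM) were higher in such cells. Il6 (696 against 988 CPM) and Cxcl5 (1104 against 1648 CPM) were lower there. Whether the difference between libraries in these state contrasts exceeds animal-to-animal variation was not tested.

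The Cemip promoter is printed because it alone among the 6 matched members held a TATA box, which begins 29 bases before the start site, and because its cell distribution was the narrowest. The window (chr7:84086456-84086755, GRCm38.p6, minus strand, printed on that strand) had 73.7% G and C, against a median of 52.7% over all promoters, and 2 GC boxes.
Cemip: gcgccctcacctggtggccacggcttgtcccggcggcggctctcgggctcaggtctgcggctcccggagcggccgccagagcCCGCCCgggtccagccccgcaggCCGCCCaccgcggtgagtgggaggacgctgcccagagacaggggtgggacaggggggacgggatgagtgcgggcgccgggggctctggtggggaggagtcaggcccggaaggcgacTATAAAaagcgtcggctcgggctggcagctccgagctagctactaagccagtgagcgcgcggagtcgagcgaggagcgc
Cemip2, the transmembrane relative of Cemip, was distributed otherwise. It was highest in endothelial cells, at 315 CPM (299 to 332) in the wild type and 328 CPM (309 to 348) in the library labelled Has2-transgenic. Among the classes gated in number in both libraries, fibroblasts came next at 130 and 107 CPM. Schwann cells had 53.8 CPM (32.9 to 83.1) and 73.4 CPM (50.5 to 103), macrophages or monocytes 48.6 and 43.7 CPM, T cells 31.3 and 38.1 CPM and neutrophils 11.42 and 13.01 CPM. Schwann cells overlapped macrophages in the wild type, and T cells and macrophages overlapped in the library labelled Has2-transgenic. Pericytes or smooth muscle cells, gated in number in that library alone (81 cells), had 123 CPM (105 to 144), overlapping fibroblasts, and keratinocytes 72.7 CPM.

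Gusb and Hexa, which act on the ends of hyaluronan fragments in the lysosome, were both highest in macrophages or monocytes. Gusb had 116 CPM (113 to 119) there in the wild type and 139 CPM in the library labelled Has2-transgenic, with fibroblasts at 40.5 and 44.0 CPM, endothelial cells at 33.8 and 38.8 CPM, T cells at 16.7 and 14.0 CPM and neutrophils at 9.37 and 9.73 CPM. Schwann cells (51.1 and 57.8 CPM) overlapped fibroblasts. Hexa had 221 CPM (217 to 226) and 307 CPM in macrophages or monocytes, and Schwann cells had 67.3 CPM (43.5 to 99.3) and 84.5 CPM (59.8 to 116), overlapping neutrophils in the wild type and both neutrophils and fibroblasts in the other library. Neutrophils (47.3 CPM) stood above fibroblasts (41.0 CPM) in the wild type, while in the other library they had 77.8 and 81.2 CPM, with overlapping intervals. Endothelial cells had 28.8 and 40.8 CPM of Hexa, and keratinocytes of the library labelled Has2-transgenic had 5.65 CPM.

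**Figure D2:**
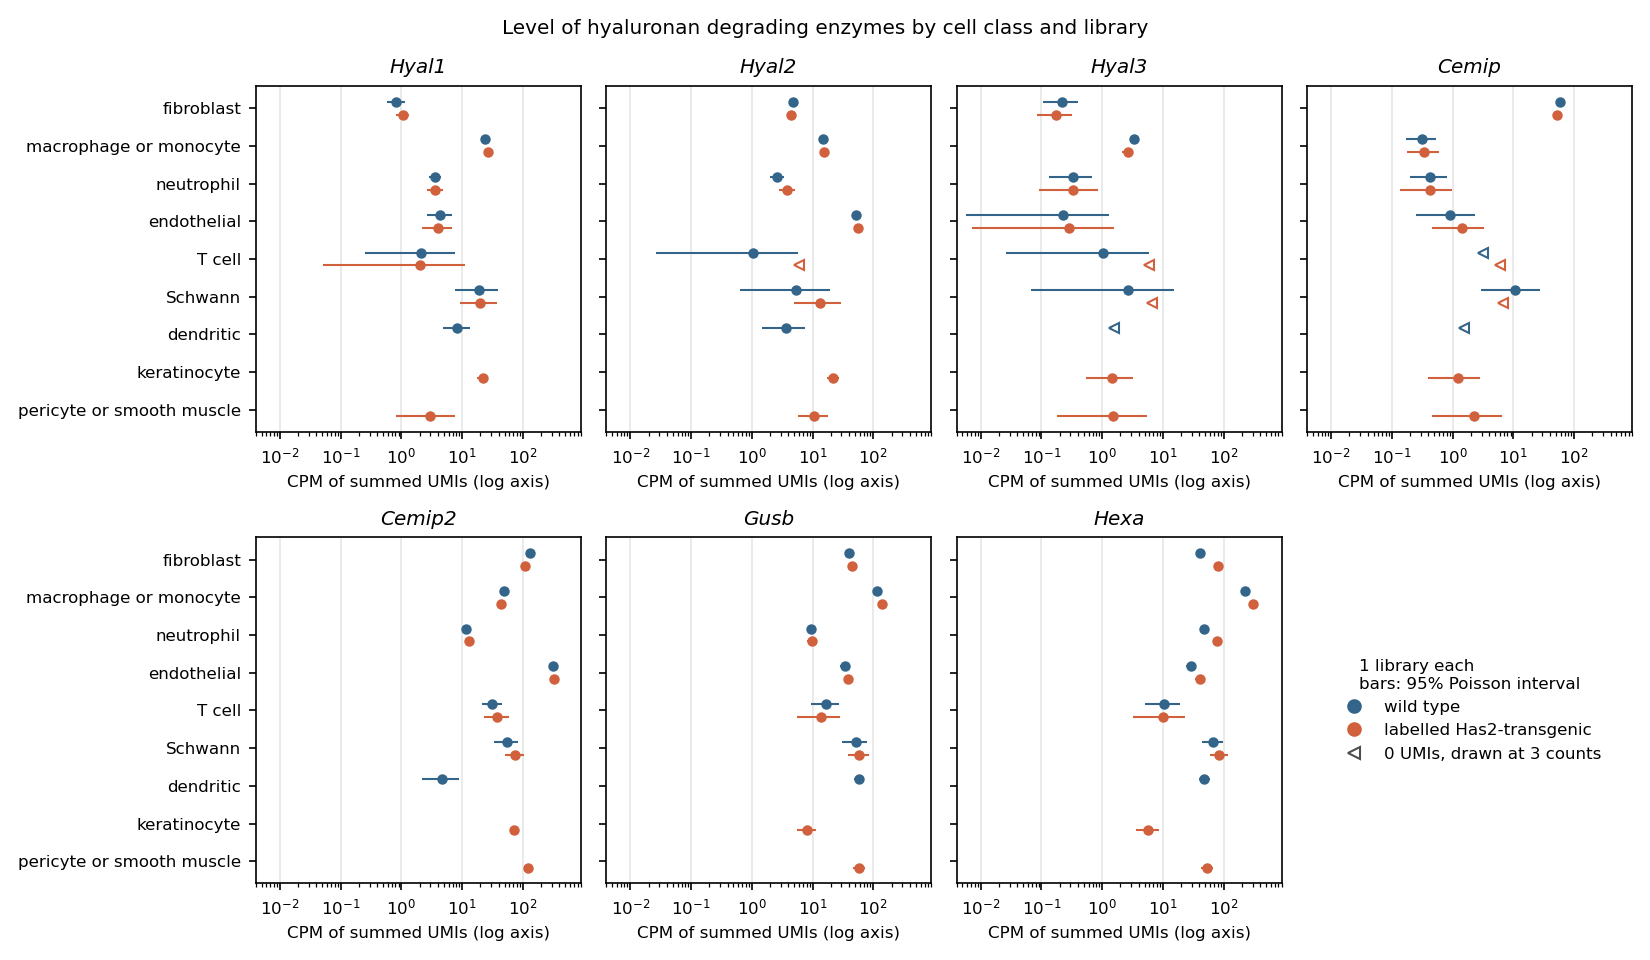
CPM of summed UMIs (logarithmic axis) for each of the 7 genes in each cell class with at least 50 cells, with 1 point for each library and its 95% Poisson interval; triangles mark 0 UMIs, drawn at the level of 3 counts. Endothelial cells lead for Hyal2 and Cemip2, fibroblasts for Cemip, and macrophages or monocytes for Hyal1, Hyal3, Gusb and Hexa.

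A member was counted as higher or lower, always as the library labelled Has2-transgenic over the wild type, where its CPM differed by at least 1.5-fold and the class held at least 50 of its UMIs. In fibroblasts 6 members were measured that deeply, of which 1, Hexa, was higher and 0 were lower; of all 14313 genes measured, 15.4% were higher and 7.85% lower. In macrophages or monocytes 0 of 6 members were higher or lower, against 14.1% and 5.13% of 12551 genes. In neutrophils 1 of 5 was higher (Hexa) and 0 lower, against 13.3% and 10.4% of 8912 genes. In endothelial cells 0 of 4 passed in either direction, against 10.8% and 6.66% of 9297 genes, and in T cells no member reached 50 UMIs. The members' median log2 ratio was 0.0039 in fibroblasts, 0.12 in macrophages or monocytes, 0.19 in neutrophils and 0.15 in endothelial cells, beside medians of -0.05, 0.06, 0.01 and -0.0039 over all genes. Counts of 0 or 1 among so few members lie near the shares of all genes and describe no shift of the set. The handling genes of a fixed list (immediate early and heat shock genes, which tissue dissociation is known to induce) were higher for 5 of 14 in fibroblasts, 6 of 14 in macrophages, 10 of 14 in neutrophils and 11 of 14 in endothelial cells, and lower for none, and their part in the member ratios was not tested.

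**Figure D3:**
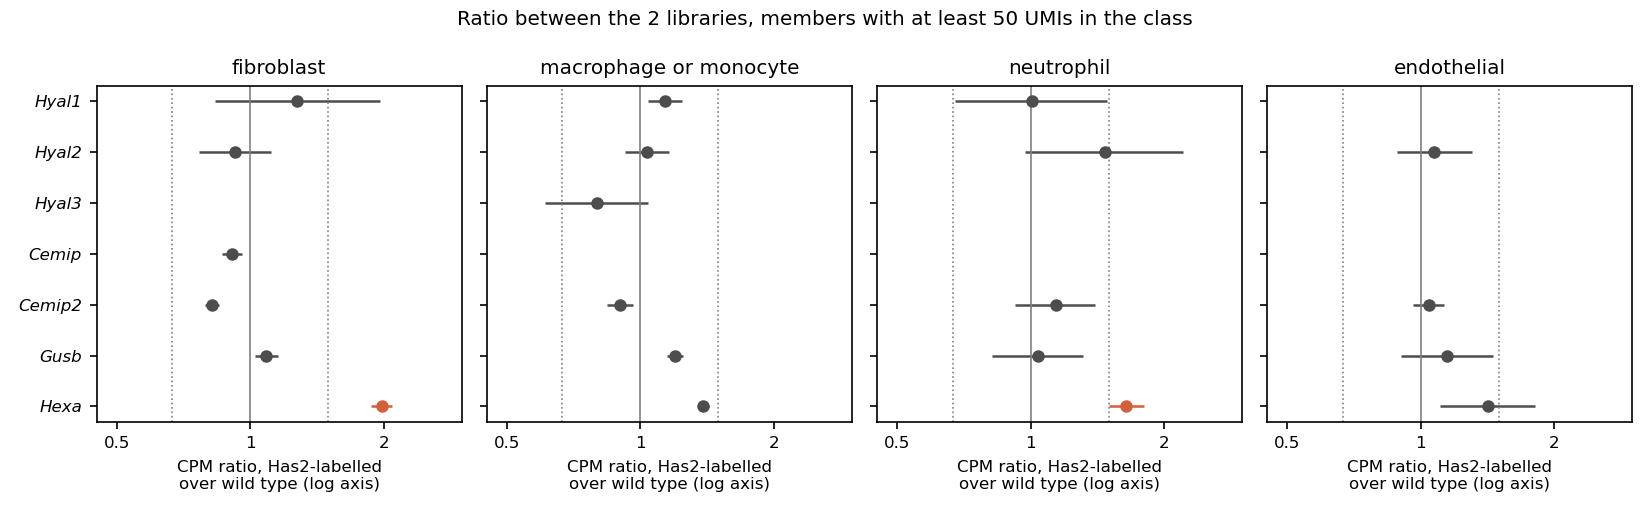
Ratio of CPM in the library labelled Has2-transgenic over the wild type (logarithmic axis) for members with at least 50 UMIs in the class, with 95% intervals; dotted lines mark 1.5-fold in either direction. Hexa lies past the line in fibroblasts and neutrophils.

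Hexa had the largest ratio of summed counts among the measured members in each of the 4 classes, an order that other settings changed: Hyal1 was 2.18 in fibroblasts when each cell counted equally, and Hyal2 was 1.78 in neutrophils and 2.97 in endothelial cells after thinning. These 3 values rest on few counts. Hyal1 had 38 and 60 UMIs in fibroblasts. Thinned, Hyal2 was seen in 13 and 18 neutrophils and in 6 and 14 endothelial cells. The unthinned endothelial ratio of Hyal2 was 1.07 (0.882 to 1.30). In fibroblasts Hexa was 41.0 CPM (39.2 to 42.9) in the wild type and 81.2 CPM (78.9 to 83.6) in the library labelled Has2-transgenic, a ratio of 1.98 (1.88 to 2.09). The ratio was 1.646 (1.504 to 1.802) in neutrophils, 1.42 (1.11 to 1.81) in endothelial cells and 1.39 (1.35 to 1.43) in macrophages or monocytes. The endothelial ratio was 0.894 when each cell counted equally, so its direction depended on how cells were weighted. Both calls past 1.5-fold were lost under an alternative, in fibroblasts with cells thinned to 1000 UMIs (1.38) and in neutrophils with classes taken from clusters (1.499). A UMI of Hexa was found in 44.2% and 69.3% of fibroblasts and, after thinning to 1000 UMIs, in 5.71% (4.72 to 6.84) and 7.54% (6.46 to 8.73). Its promoter (chr9:59539290-59539589, GRCm38.p6, plus strand), printed because Hexa is the 1 member past 1.5-fold, held 3 GC boxes and 1 CCAAT box.
Hexa: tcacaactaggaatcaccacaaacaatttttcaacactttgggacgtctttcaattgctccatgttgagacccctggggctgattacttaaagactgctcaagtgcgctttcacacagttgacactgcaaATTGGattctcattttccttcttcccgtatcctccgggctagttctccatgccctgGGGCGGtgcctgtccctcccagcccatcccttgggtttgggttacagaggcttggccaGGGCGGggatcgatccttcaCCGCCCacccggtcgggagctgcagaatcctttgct
The fibroblast ratio of Hexa differed between clusters. In cluster 1 the levels were 34.1 and 32.7 CPM (ratio 0.957, 0.814 to 1.12), and in cluster 4 they were 48.1 and 32.7 CPM (ratio 0.678, 0.585 to 0.784), lower in the library labelled Has2-transgenic. In cluster 0, a group of shallow cells, they were 58.8 and 89.2 CPM (ratio 1.52, 0.978 to 2.31). Clusters 5 and 22 held 785 and 794 gated fibroblasts labelled Has2-transgenic, at 96.7 and 95.5 CPM, but only 10 and 28 of the wild type, at 110 CPM (68.1 to 168) and 58.4 CPM (40.4 to 81.6). Without these 2 clusters the fibroblast ratio was 0.902. A cluster that is mostly 1 library may stand for that library and not for a cell type, and whether the cells present in each library set the ratio was not tested. Split by markers and not by clusters, Hexa was higher both in the myofibroblast-like fibroblasts (94.6 against 43.0 CPM, ratio 2.20) and in the rest (66.8 against 40.9 CPM, ratio 1.63). With the highest 50% taken as myofibroblast-like, the ratio in the rest was 1.03 (0.929 to 1.15). Macrophage markers summed to 44.7 and 54.9 CPM in fibroblasts, with all 13 seen in both libraries, against 6707 and 9172 CPM in macrophages or monocytes.

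In macrophages or monocytes the Hexa ratio was between 1.11 and 1.43 in 6 of 7 clusters, each with an interval above 1, and 0.995 (0.838 to 1.19) in cluster 11. Leaving out cluster 6, which had a marker of another class (Il7r) and none of its own among its leading 10 genes, gave 1.40. Clusters 7 and 3 held the most wild type cells of the class (1282 and 1225), and clusters 13 and 9 the most of the other library (826 and 778). Split by markers, the Hexa ratio was 1.018 (0.942 to 1.099) in the 25% of cells highest for Chil3, Ly6c2, Plac8 and Ccr2. It was 1.35 in the rest. With a cut at 50% it was 1.038, with an interval across 1, and 1.42 in the rest. In the other marker splits of the class the interval lay above 1 in both parts at both cuts. Cluster 3, led by Chil3, had 1.18. In neutrophils the Hexa ratio was above 1 in 4 of 4 clusters, from 1.04 to 1.57, with an interval above 1 in 1 of them. Leaving out cluster 8, a group of 37 cells with the monocyte marker Chil3 and no neutrophil marker among its leading 10 genes, gave 1.65. Cluster 14 held 2924 of the wild type neutrophils and 757 of the others, and cluster 15 held 828 and 2116. Hexa was 30.1 and 47.2 CPM in cluster 14 and 79.9 and 90.6 CPM in cluster 15. Macrophage markers summed to 727 and 743 CPM in neutrophils, and their part in the neutrophil Hexa level was not tested.

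**Figure D4:**
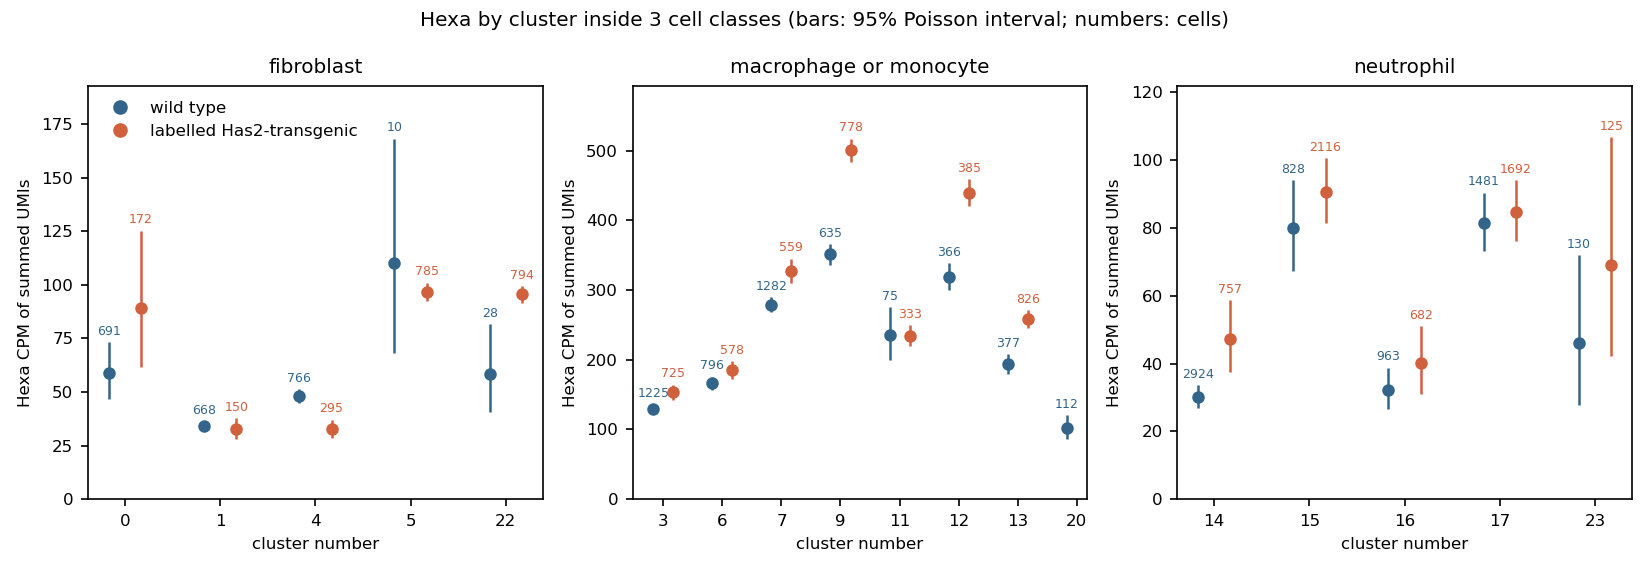
Hexa CPM (vertical axis from 0) in clusters of gated fibroblasts, macrophages or monocytes and neutrophils, with 1 point for each library, 95% Poisson intervals and the number of cells above each point. Fibroblast clusters 1 and 4 show no higher point for the library labelled Has2-transgenic, and clusters 5 and 22 are nearly empty in the wild type.

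Of the other members, none passed 1.5-fold over a whole class, but some did within single clusters. Hyal2 had the next largest class ratio after Hexa in neutrophils, at 1.47 (0.971 to 2.21). Cemip2 was lower in fibroblasts labelled Has2-transgenic (ratio 0.821, 0.792 to 0.851), and was lower too within cluster 1 (176 against 113 CPM, ratio 0.641) and cluster 4 (74.7 against 53.7 CPM, ratio 0.719). Without clusters 5 and 22 the ratio was 0.59999, past 1.5-fold. Cemip had a fibroblast ratio of 0.908 (0.862 to 0.957), but 0.7163 (0.5996 to 0.8511) within cluster 1 and 0.128 (0.0650 to 0.227) within cluster 4, where the levels were 12.95 and 1.653 CPM. These cluster ratios rest on few cells, which their intervals do not cover. In cluster 1, 23 wild type cells held 734 of 904 UMIs, and 3 cells of the other library held 123 of 153. In cluster 4, 6 wild type cells held 106 of 239 UMIs, and the other library had 12 UMIs in 9 cells. Without the 10 cells that held most Cemip in each library the fibroblast ratio was 1.42, so its direction changed with a few cells. Without clusters 5 and 22, which held 785 and 794 fibroblasts of the library labelled Has2-transgenic, the Cemip ratio was 0.492. Gusb was 1.197-fold higher in macrophages or monocytes (1.151 to 1.245) and above 1 in 6 of 7 clusters, from 0.886 to 1.52. The interval lay above 1 in 4 of these clusters and below 1 in 1, cluster 9 (0.886, 0.812 to 0.968). Thinned to 1000 UMIs, the class ratio of Gusb was 1.04. Hyal1 (ratio 1.14, 1.04 to 1.24), Hyal2 (1.04, 0.923 to 1.16) and Hyal3 (0.797, 0.609 to 1.04) lay within 1.5-fold in macrophages or monocytes. Hyal1 had a ratio of 0.6998 (0.558 to 0.878) in cluster 12, at 49.7 and 34.8 CPM, and 1.75 (1.14 to 2.74) in cluster 13, at 8.25 and 14.4 CPM. Hyal2 also differed among their clusters, from 14.5 against 8.71 CPM in cluster 6 (interval of the ratio 0.406 to 0.872) to 4.001 against 6.64 CPM in cluster 3 (ratio 1.66, 1.02 to 2.68), and was 2.04 with an interval across 1 in cluster 11. In neutrophils Gusb was 1.04-fold (0.819 to 1.31) over the class and 0.430 (0.287 to 0.633) in cluster 17, at 21.6 and 9.30 CPM. In fibroblasts Hyal1 rested on 38 and 60 UMIs, and its ratio of 1.27 had an interval from 0.834 to 1.96.

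Within macrophages and monocytes, the hyaluronidases followed cell state in both libraries. In cells high for resident-like markers (Folr2, Mrc1, Lyve1, Cd163 and F13a1; the highest 25% of both libraries' cells), Hyal1 was 37.9 CPM against 18.8 CPM in the rest of the wild type, and 36.9 against 23.0 CPM in the library labelled Has2-transgenic. The ratios of resident-like cells to the rest were 2.24 and 1.65 for Hyal2, 2.56 and 2.73 for Hyal3, 1.60 and 1.66 for Cemip2 and 1.78 and 1.99 for Hexa. Hexa reached 327 and 473 CPM in these cells. Gusb did not follow in both libraries: its ratio was 1.31 (1.23 to 1.39) in the wild type and 0.967 (0.909 to 1.03) in the other.

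Cells high for monocyte markers (Chil3, Ly6c2, Plac8 and Ccr2) were the reverse. Hyal1 was 10.3 CPM there against 29.7 CPM in the rest of the wild type, and 10.5 against 30.3 CPM in the library labelled Has2-transgenic, a ratio of 0.348 and 0.347. Hyal2 had ratios of 0.375 and 0.410, Hyal3 0.260 and 0.112, Hexa 0.658 and 0.495, Gusb 0.755 and 0.562 and Cemip2 0.808 and 0.736. Cells high for MHC class II genes, which present antigen, also had less Hyal1 (0.421 and 0.569) and Hyal2 (0.459 and 0.632). Cells high for Arg1, the arginase of wound macrophages, had less Hexa (0.776 and 0.664) and Gusb (0.878 and 0.761), with Cemip2 at 1.08 in both. Cells high for the osteoclast-associated genes Ctsk, Acp5 and Mmp9 had more Gusb, at ratios of 1.105 and 1.313. Gusb was not alone in this, as the levels of Hyal1, Hyal2 and Hyal3 were also higher there in both libraries. The Hyal3 levels of the high cells rested on 37 and 44 UMIs. Median depth differed little between resident-like cells and the rest of the wild type (8764 against 8496 UMIs) and more in the other library (9151 against 6928 UMIs).

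**Figure D5:**
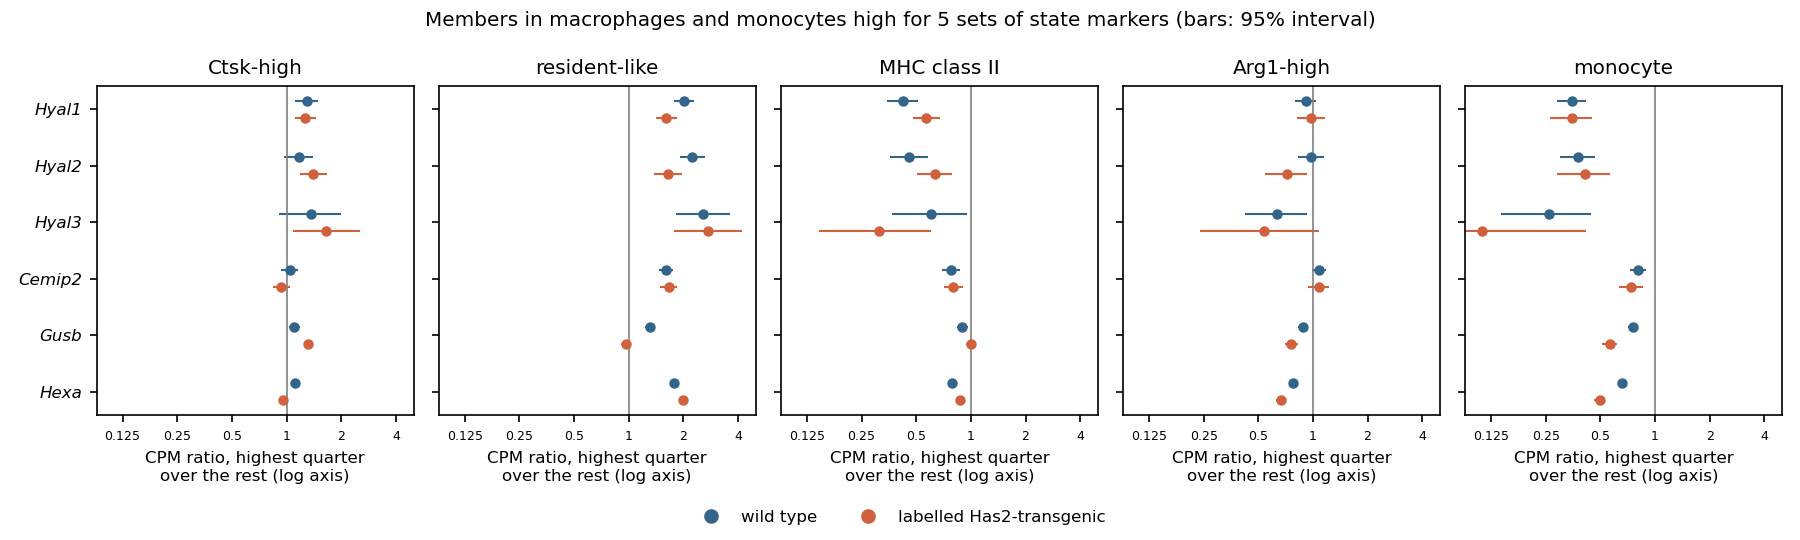
Ratio of CPM in the highest 25% of macrophages or monocytes for each marker set over the remaining cells (logarithmic axis), for the 6 members other than Cemip, with 1 point for each library and 95% intervals. Cemip, with 14 and 12 UMIs in this class, is not drawn. Hyal1, Hyal2, Hyal3, Cemip2 and Hexa lie above 1 in resident-like cells and below 1 in monocyte-like cells in both libraries.

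In neutrophils, cells high for Retnlg, a gene of mature circulating neutrophils, had less Hexa than the rest: 36.4 against 55.0 CPM in the wild type (ratio 0.663) and 62.5 against 79.6 CPM in the library labelled Has2-transgenic (ratio 0.785). Gusb had a ratio of 0.532 (0.381 to 0.732) in the wild type and 0.533 (0.210 to 1.14) in the other library, where it rested on 7 UMIs in the high cells. Cells high for interferon-response genes had Hexa ratios of 0.828 and 0.847.

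The partner genes of the pathway were counted from fixed lists by the same 1.5-fold rule. Gm2a, the activator protein that presents lipid substrates to beta-hexosaminidase, was 1.95-fold higher in fibroblasts and 2.004-fold higher in neutrophils, the same classes in which Hexa passed. In macrophages or monocytes Gm2a had a ratio of 0.913 (0.882 to 0.945), while that of Hexa was 1.39. Of 11 lysosomal enzymes that act on other glycosaminoglycans, 0 passed in fibroblasts (9 of 11 had a ratio above 1), and 4 were higher in macrophages or monocytes, led by Arsb (ratio 2.36) and Sgsh (ratio 1.78). Of 17 other lysosomal enzymes and membrane proteins, 5 were higher in fibroblasts, led by Ctsa (ratio 1.89) and Fuca1 (ratio 1.82), and 1 in macrophages or monocytes, Lipa (ratio 1.76). Beside these counts, 15.4% of all genes were higher in fibroblasts, 14.1% in macrophages or monocytes, 13.3% in neutrophils and 10.8% in endothelial cells, and several lists lie near or below that share. In neutrophils 3 of these 17 were higher, led by Lipa (ratio 1.55), and in endothelial cells 7, led by Ctsl (ratio 1.96); none of the 17 was lower in any of the 4 classes. Their median log2 ratio was 0.42 in fibroblasts, 0.31 in macrophages or monocytes, 0.03 in neutrophils and 0.42 in endothelial cells. Of the 3 factors of the family that activates lysosomal genes, Tfeb (ratio 2.08) and Mitf (ratio 1.68) were higher in neutrophils and none passed in fibroblasts or macrophages. In endothelial cells 1 of the 2 factors measured was higher. Of the hyaluronan receptors measured, 3 of 5 were higher in macrophages or monocytes, led by Hmmr (ratio 3.16) and Lyve1 (ratio 1.91), 1 of 5 was higher in fibroblasts and 0 of 3 in neutrophils, and 2 of 5 were lower in endothelial cells, among them Lyve1 (ratio 0.464). Cd44, the main receptor, was 1008 and 1059 CPM in fibroblasts and 1956 and 1409 CPM in macrophages or monocytes (ratio 0.720).

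Across 15 sums of cells, each 1 class in 1 library, the genes whose log2 level was most like a member's were ranked among 12184 genes by Pearson's r; the sums of a library share its preparation, and a class that both libraries hold enters once from each. Cemip was nearest Ltbp2 (0.974), an extracellular matrix gene, then 4930578G10Rik (0.968) and Pcolce2 (0.952). Gusb was nearest Fcgrt (0.966), Adam9 (0.926) and Tmem219 (0.921), and Hexa was nearest Pid1 (0.922), Aldh3b1 (0.908) and Hmox1 (0.894). Hyal1 was nearest its overlapping neighbour Naa80 (0.903), then Shtn1 (0.875) and Maml3 (0.855). Hyal2 was nearest C77080 (0.916), Zfand5 (0.909) and Cav2 (0.891), and Cemip2 was nearest Lrrc8a (0.905), Ankrd42 (0.903) and Cdr2 (0.902). Among the members themselves r was 0.74 between Gusb and Hexa, 0.64 between Hyal2 and Cemip2, 0.42 between Hyal1 and Hyal2 and 0.40 between Cemip and Cemip2.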

How the data were processed

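Single-cell libraries of the 10x GEM-X 5′ v3 kind were made from skin dissociated with dispase, accutase and collagenase, per the labels' protocols. The deposited values are raw counts of UMIs for each gene in each barcode; per the submitters' processing notes, Cell Ranger 9.0.1 and build GRCm39 were used. No test for empty droplets or free RNA was applied here.

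A cell was kept if it had 200 or more genes and no more than 15% of its UMIs from mitochondrial genes. Scrublet scores (scanpy 1.11.5) were computed per library; its automatic threshold marked 236 and 0 cells, so the cells with the highest scores, 0.4% for each 1000 barcodes, were removed instead (1156 and 855). A cell took the class with the largest share of its markers detected, from at least 3 markers and with a lead of 1.25 times over the next class. This gate was set with the data in hand. The gate and the name of the cell's Leiden cluster were the same for 94.9% of 27149 gated cells. The clustering used 3000 variable genes, 30 components and 15 neighbours, and left out the members, Has2, mitochondrial, sex-linked and receptor segment genes.

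UMI counts were summed per class and library and divided by the class's total for CPM, with exact Poisson intervals, exact conditional intervals for ratios and exact binomial (Clopper-Pearson) intervals for shares of cells. Classes with at least 50 cells gave levels and classes with at least 100 cells in both libraries gave ratios. Pathway genes are named as the 2 with the largest ratio in each direction per list and class among those with at least 100 UMIs, besides Has2 and Cd44; 1 further gene of the lists is not reported here. The likeness used log2(CPM + 1) and genes with at least 500 UMIs, for members with at least 500 UMIs. The ratio code was tested on simulated counts. The members and lists were chosen with earlier results of these data known. Alternatives in the filters, doublets, classes, scaling, thinning and single cells were run.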

Additional observations from a re-analysis of the deposited data

Results flagged for a closer look

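The Hexa level in fibroblast cluster 4 went against the level of its class. It was lower in the library labelled Has2-transgenic, with a ratio of 0.678, while the fibroblasts as a whole had a ratio of 1.98. The 2 ratios come from the same libraries, and the difference between them was not tested.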

How the results depend on the processing

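Of 233 values of 21 member ratios under the alternatives, 200 lay within the counting interval of the reported ratio and 32 moved out of it. A ratio past 1.5-fold crossed 1 in 1 case, Hexa in fibroblasts at 0.902 without clusters 5 and 22. Ratios within 1.5-fold crossed 1 more often, among them Hexa in endothelial cells (0.894 by the mean of per-cell CPM) and Cemip in fibroblasts. The settings that leave out clusters 0, 5, 6, 8 and 22 or the 10 cells with most UMIs of a gene, and the gate lead of 1.5, were chosen after seeing the data. Hexa in fibroblasts was 1.63 as the mean of per-cell CPM and 1.38 thinned to 1000 UMIs. In macrophages or monocytes it was 1.33 as that mean, 1.29 thinned and 1.33 under median of ratios scaling, and in neutrophils 1.499 with classes from named clusters. Cemip in fibroblasts was 1.005 with no doublet removal, 0.749 thinned, 0.492 without clusters 5 and 22 and 1.42 without the 10 cells. The causes of these changes were not tested. Of 98 ratios between cell states with a cut at 50% in place of 25%, 62 stayed within their interval, 36 moved out of it and, among those past 1.5-fold, 0 crossed 1.

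Members counted as higher in fibroblasts numbered 2 with no doublet removal, 2 by the mean of per-cell CPM, 0 thinned and 0 at 2-fold. Members lower in fibroblasts numbered 2 without clusters 5 and 22, where the 1 higher was Hyal1 and not Hexa. In neutrophils the number higher was 2 at a minimum of 500 genes, 0 with named clusters, 0 at 2-fold and 2 at the gate lead of 1.5. In endothelial cells it was 1 at that lead, and in macrophages or monocytes 1 was lower by the mean of per-cell CPM. Of all genes in neutrophils, 10.5% were higher and 18.7% lower with named clusters and 10.7% and 13.2% by per-cell CPM, beside 13.3% and 10.4%. In fibroblasts without clusters 5 and 22 the shares were 7.37% and 6.80%, beside 15.4% and 7.85%, and in macrophages or monocytes thinned they were 6.24% and 4.94%, beside 14.1% and 5.13%. No paired analysis was possible because each genotype had 1 library. Depth limited Hyal3, which reached 50 UMIs in macrophages or monocytes only.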
